A study of Mus musculus with 6 samples.

Results

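Accessible regions that are assigned to no gene often lie in groups along the chromosome. Here 348 such dense chains were described in NIH3T3 cells, an immortal mouse fibroblast line. A member is a region to which the deposited table gives no gene, though it can lie inside the body of one. Such distal regions were sorted along each chromosome, neighbours at most 12.5 kb apart were joined, and chains of at least 6 regions were kept. The 348 kept chains were 1.65% of 21132 chains of any length, single regions included. They held 2526 regions, which are 4.77% of the 52957 regions of the table and 7.49% of its 33724 distal regions. This rule used position and the missing gene, and not the values of the libraries. Only regions that the deposited table lists could be members, and how those were called from the signal is not given.

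The assay was ATAC-seq: the Tn5 transposase cuts open DNA and adds sequencing adapters to it. The 3 active libraries came from cells with a working T3H48 hammerhead ribozyme, a self-cleaving RNA, knocked into intron 3 of Actg1, which encodes gamma-actin. The 3 inactive libraries came from cells with the inactive form of the same ribozyme at that place, so both groups carry a knock-in and neither is unedited. The labels describe stable, genotyped lines and give neither their number nor whether replicate libraries stem from separate cultures. P-values therefore measure only the spread between these libraries, and ribozyme activity and the history of a line cannot be told apart.

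Distal open regions are frequently enhancers, DNA elements bound by transcription factors that act on promoters at a distance. Neighbouring enhancers can be joined by distance into clusters, and such clusters are known to lie near genes that define a cell type. In fibroblasts such genes include those of the actin cytoskeleton, of focal adhesions and of the extracellular matrix. Accessibility alone does not show that a region is an enhancer or which gene it serves.

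The chains can only be described by the genes beside them, so the 250 bases upstream of the start of 4 of these genes are shown. Hs1bp3 and Frmd6 stand for chains that rose, Col6a2 and Firre for chains that fell. Sequences are RefSeq GRCm38.p6 and run 5′ to 3′ on the strand of the gene. Their positions are on that build and are not comparable with the mm39 positions of the regions. Capitals mark GC boxes (GGGCGG on either strand, so CCGCCC too), which may overlap each other.
Hs1bp3 (chr12:8313183-8313432, plus strand): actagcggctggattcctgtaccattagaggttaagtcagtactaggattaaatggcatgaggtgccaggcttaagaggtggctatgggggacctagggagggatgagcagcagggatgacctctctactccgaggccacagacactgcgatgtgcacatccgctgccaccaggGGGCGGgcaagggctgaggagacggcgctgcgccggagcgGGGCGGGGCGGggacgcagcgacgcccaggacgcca
Frmd6 (chr12:70825264-70825513, plus strand): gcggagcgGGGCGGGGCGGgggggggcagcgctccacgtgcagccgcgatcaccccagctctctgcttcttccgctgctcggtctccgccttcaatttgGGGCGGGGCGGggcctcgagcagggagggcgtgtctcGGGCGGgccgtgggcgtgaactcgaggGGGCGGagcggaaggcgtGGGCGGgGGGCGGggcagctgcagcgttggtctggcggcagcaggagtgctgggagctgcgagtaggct
Col6a2 (chr10:76623405-76623654, minus strand): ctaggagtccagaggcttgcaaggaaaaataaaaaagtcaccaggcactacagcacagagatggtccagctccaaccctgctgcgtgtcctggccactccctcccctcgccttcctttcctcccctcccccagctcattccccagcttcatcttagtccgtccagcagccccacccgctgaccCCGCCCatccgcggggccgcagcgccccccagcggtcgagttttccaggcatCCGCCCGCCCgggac
Firre (chrX:50635322-50635571, minus strand): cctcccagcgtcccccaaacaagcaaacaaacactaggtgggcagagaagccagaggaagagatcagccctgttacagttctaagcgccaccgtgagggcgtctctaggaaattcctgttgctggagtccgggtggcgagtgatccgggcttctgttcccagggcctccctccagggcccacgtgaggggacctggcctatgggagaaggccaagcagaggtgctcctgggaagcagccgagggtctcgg
The upstream sequences of Hs1bp3, Frmd6, Col6a2 and Firre held 3, 8, 3 and 0 GC boxes in this order, and 32.7% of 32851 mouse promoter windows of this length held at least 1. The AP-1 motif TGANTCA and the CCAAT box were also searched on both strands and matched in none of the 4 sequences. They occur in 6.75% and 33.8% of the windows. The 4 sequences held 16, 28, 14 and 10 CpG dinucleotides, where the median of all windows was 6. For Col6a2 the first of 2 listed starts is shown. A match is a description of the letters and not of binding.

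The chains were short, strong and mostly empty DNA between their regions. A chain spanned a median of 32100 bp (9142 to 111946 bp), and all of them together 11.9 Mb. The regions themselves covered a median of 10.4% of the span. Of the 348 chains, 157 had 6 regions, 85 had 7, 45 had 8 and 28 had 9, and the longest had 21. The summed signal of a chain, in normalised reads averaged over all 6 libraries, ran from 130.5 to 3404 with a median of 712.7. The strongest region of a chain held 12.4% to 73.5% of its sum, with a median of 34.8%. A member region had a median level of 67.9 normalised reads, against 34.7 for a distal region with no neighbour in reach and 224.3 for regions within 1000 bp of a start site.

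Library totals over all regions lay between 6433944 and 6548535 normalised reads, so the deposited scaling had made the libraries nearly equal. Some whole numbers below 60 never occurred in 2 active libraries (10 in active replicate 1 and 26 in active replicate 2, none in the other 4), as values multiplied up before rounding give. Across member regions, libraries correlated at 0.962 to 0.971 within the active group and 0.980 to 0.982 within the inactive group (Pearson, on the deposited values). Promoter regions of 10 of 12 fibroblast markers were present, with a median level of 265.7. Those of 0 of 6 leukocyte and 0 of 5 muscle markers were listed, and 1 of 8 epithelial (Krt8), 1 of 5 endothelial (Kdr) and 2 of 5 neural markers (Tubb3 and Gfap). The summed level of the fibroblast marker promoters was 2564 to 2751 in active and 3335 to 3397 in inactive libraries. That of the epithelial marker was 134 to 171 in active and 78 to 89 in inactive libraries, that of the endothelial marker 74 to 82 in active and 5 to 9 in inactive libraries, and that of the neural markers 152 to 174 in active and 206 to 241 in inactive libraries. The 10 fibroblast marker promoters did not all move one way. In active libraries 2 were higher (Col1a2 and Twist1), 7 were lower and that of Col3a1 did not pass the limma threshold given below. Vim, the strongest of them, weighed most in their sum, with means of 668.7 in active and 986 in inactive libraries. The part of these marker differences in the results on the chains was not tested.

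The dense chains carried a smaller part of the distal signal in the active libraries. They held 10.3%, 10.4% and 10.4% of all distal signal in active replicates 1 to 3, against 11.5%, 11.6% and 11.5% in inactive replicates 1 to 3. All active libraries lay below all inactive ones. Both parts of this share moved. Members summed to 275397 to 277489 normalised reads in active and 289126 to 293925 in inactive libraries. All distal regions summed to 2645471 to 2675355 in active and 2519076 to 2544255 in inactive libraries. The mean share was 10.4% ± 0.0501 in active and 11.5% ± 0.0499 in inactive libraries (SD, n = 3 each), a difference of -1.12 percentage points. The exact permutation test over libraries gave a two-sided p of 0.1, the smallest value that 3 against 3 can give. Chains of 3 to 5 regions also held less, 27.7% ± 0.0370 in active and 28.8% ± 0.0401 in inactive libraries. Single regions held more, 35.5% ± 0.0769 in active and 33.4% ± 0.0632 in inactive libraries, and pairs differed by 0.11 points (26.4% in active and 26.3% in inactive libraries). In bulk libraries, a region open in fewer cells and a region less open in each cell cannot be told apart.

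Single member regions differed in both directions, more often downward. Of 2526 members, 2482 had a mean of at least 10 and were tested with limma on log2(value + 1), adjusted over all 51253 tested regions of the table. In active libraries 606 (24.4%) were higher and 877 (35.3%) lower at an adjusted p of 0.05, and 999 did not pass. Over all tested regions 30.9% were higher and 29.2% lower. The median log2 change of the members was -0.10, against -0.02 for all regions. At least 2-fold higher were 172 members (6.93%, against 13.4% of all regions), and at least 2-fold lower 228 (9.19%, against 6.86%). Of the members 5% lay above 1.17 and 5% below -1.31, against 1.90 and -1.17 for all regions, so their upper tail was shorter and their lower tail longer.

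**Figure D1:**
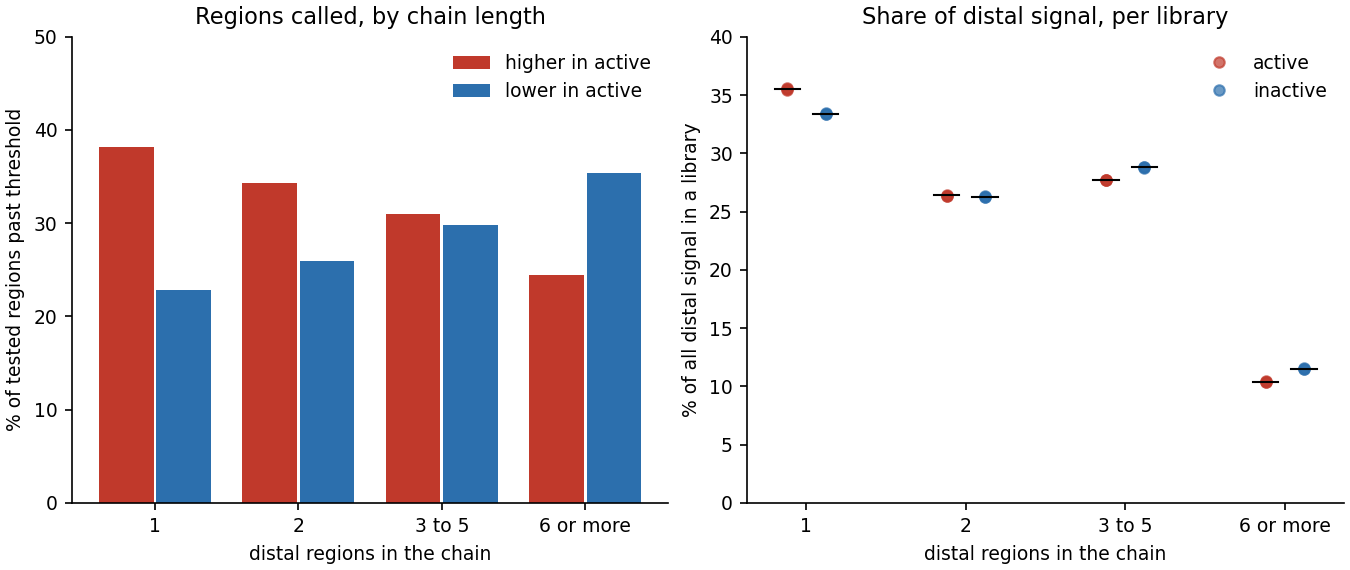
Left, percent of tested distal regions past the threshold (limma, adjusted p of 0.05) by the number of regions in their chain, red higher and blue lower in active libraries. Right, percent of all distal signal held by each class in each library, points for libraries and lines for means (active left, inactive right of each pair). Higher calls go from 38.1% in single regions to 24.4% in chains of 6 or more, lower calls from 22.9% to 35.3%.

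Both shares moved step by step with the number of neighbours. Higher calls made up 38.1% of tested single regions, 34.4% of pairs, 31.0% of chains of 3 to 5 and 24.4% of the dense chains. Lower calls made up 22.9%, 25.9%, 29.9% and 35.3% in the same order. The median level also climbed along this order (34.7, 42.8, 51.3 and 67.9 normalised reads), and promoter regions, stronger still, had 22.4% higher and 36.6% lower. Members and other distal regions were therefore also set side by side within 5 equal groups by level, a comparison added after the data were seen. In each group the members had a smaller share of higher and a larger share of lower calls than other distal regions. At the lowest levels 20.1% of members and 32.7% of others were higher, while 32.0% of members and 23.1% of others were lower. At the highest levels 25.2% of members and 32.8% of others were higher, while 40.5% of members and 32.6% of others were lower. There was no step at the minimum of 6 regions: the 157 chains of exactly 6 had 27.1% of tested regions higher and 32.7% lower, and the 281 chains of exactly 5 had 27.3% higher and 34.2% lower.

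Summed over a chain, most of the 348 differed between the groups. In a limma fit over the sums of all 20365 tested chains of any length, 103 dense chains (29.6%) rose in active libraries and 167 fell, while 78 did not pass. Of all chains, 37.9% were higher and 26.3% lower. The log2 changes ran from -1.22 to 1.50 with a median of -0.07, against 0.08 for all chains. At least 2-fold higher were 3 dense chains, and at least 2-fold lower was 1. The shares of all chains past these bounds were not determined, so these counts do not set dense chains apart. A sum over regions that move differently can also be smaller in change than its parts. Active and inactive libraries did not overlap in 280 chains (80.5%), 109 of them higher and 171 lower, against 65.8% of all chains. The median standard error was 0.05 for the dense chains and 0.16 for all chains, so smaller changes pass in these sums than in single regions. Without limma's abundance trend, 58 rose and 110 fell. 2 scalings by 10 Mb windows used the regions outside dense chains. With each library scaled by the median level of each window, 41 chains rose and 207 fell, and 404 members rose and 1032 fell, but this scaling also moved the median of all regions to -0.13. With each window scaled by the median change of its regions, a setting added after the data were seen, 79 chains rose and 160 fell, and 536 members rose and 830 fell, with a median of all regions of -0.02. Under this window-change scaling 167 of the 270 called chains kept their call, 77 lost it and 26 were called the opposite way.

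**Figure D2:**
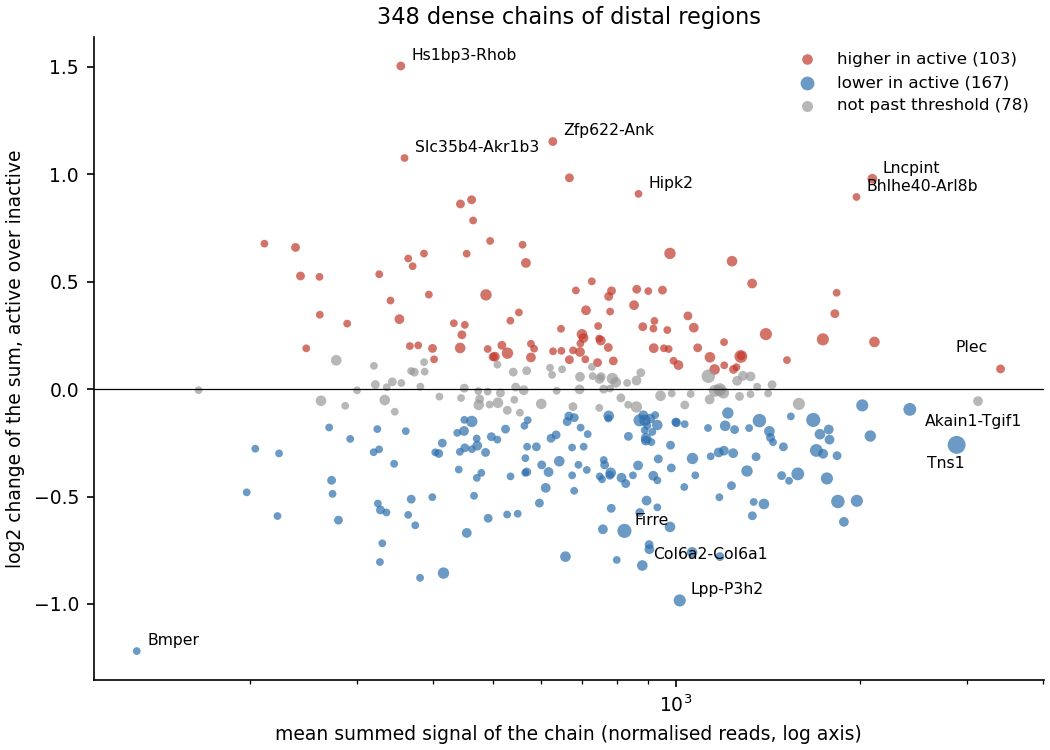
Each point is 1 of 348 chains, by its mean summed signal over all libraries (log axis) and the log2 change of its sum, active over inactive. Point size grows with the number of regions, red and blue mark sums past the threshold (103 higher, 167 lower) and grey the other 78. Named chains include the widest changes, 1.50 (Hs1bp3-Rhob) and -1.22 (Bmper).

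The chains that rose most lay on chromosomes 6, 12 and 15. A chain is named here by the annotated genes inside or around it, and a distance to a gene is to the nearest region annotated to it. The Hs1bp3-Rhob chain (chr12:8401342-8436959, mm39), 37423 bp from Hs1bp3 and 112180 bp from Rhob, a small GTPase of the actin cytoskeleton, had 7 regions. Its sum was 517, 484 and 570 normalised reads in active and 176, 192 and 183 in inactive libraries. The groups were far apart, with a 2.85-fold higher mean in active libraries (log2 change 1.50 ± 0.07 SE, limma adjusted p = 2.19e-21). Of its 7 regions 6 rose. Within it, the region at chr12:8414478-8414940 had 98, 90 and 119 reads in active and 6, 8 and 4 in inactive libraries, a log2 change of 3.91. The strongest region, at chr12:8429768-8430280, had 182, 168 and 196 in active and 78, 91 and 78 in inactive libraries. Other regions within 5 Mb of this chain had a median log2 change of 0.54.

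The Zfp622-Ank chain (chr15:26353799-26380343), between the genes of a zinc finger protein and a membrane pyrophosphate transporter, 368744 and 1085599 bp away, summed to 861, 861 and 877 in active and 388, 404 and 376 in inactive libraries. This is 2.23-fold higher in active libraries (log2 change 1.15, adjusted p = 4.62e-22), with a surrounding median of 0.40. The Slc35b4-Akr1b3 chain (chr6:34207946-34231797), between a nucleotide sugar transporter and an aldose reductase gene, had 517, 486 and 458 in active and 237, 221 and 233 in inactive libraries. All 6 of its regions rose, and the mean was 2.11-fold higher in active libraries (log2 change 1.08, adjusted p = 1.96e-17). Its surroundings had a median of 0.83, so that stretch of chromosome 6 was itself higher in active libraries.

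The Lncpint and Bhlhe40 chains joined a wide change to high signal. The Lncpint chain (chr6:31047642-31073542) reaches into the body of the gene of a p53-induced long noncoding RNA. It had 2809, 2794 and 2749 in active and 1403, 1418 and 1414 in inactive libraries, a log2 change of 0.98 ± 0.03 (adjusted p = 5.06e-27). Of 8 regions 7 rose and 1 fell, and the median of the surroundings was 0.88. The Bhlhe40-Arl8b chain (chr6:108644937-108687238) lies between Bhlhe40, a helix-loop-helix repressor, 2034 bp away, and Arl8b, a small GTPase of lysosomes. It had 2569, 2559 and 2580 in active and 1408, 1352 and 1386 in inactive libraries, a log2 change of 0.89 ± 0.03 (adjusted p = 1.34e-25). All 6 regions rose, with the change along the chain between 0.42 and 1.62. Its last region, at chr6:108686421-108687238, had 576, 507 and 557 in active and 179, 163 and 189 in inactive libraries. The surrounding median was 0.35.

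The remaining chains with the widest increases were Tmx1-Frmd6 on chromosome 12 (log2 change 0.98, all 7 regions higher), Hipk2 (0.91, all 6 higher) and Foxp1-Rybp (0.88, 5 higher and 1 lower), the last pair on chromosome 6. Frmd6 is a FERM protein of the Hippo pathway, Hipk2 a nuclear kinase, Foxp1 a forkhead factor and Rybp a Polycomb protein. In the Foxp1-Rybp chain the region at chr6:100144451-100144711 had 50, 58 and 55 reads in active and 4, 4 and 2 in inactive libraries, a log2 change of 3.71. The surrounding medians of these 3 chains were 0.41, 0.52 and 0.61.

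**Figure D3:**
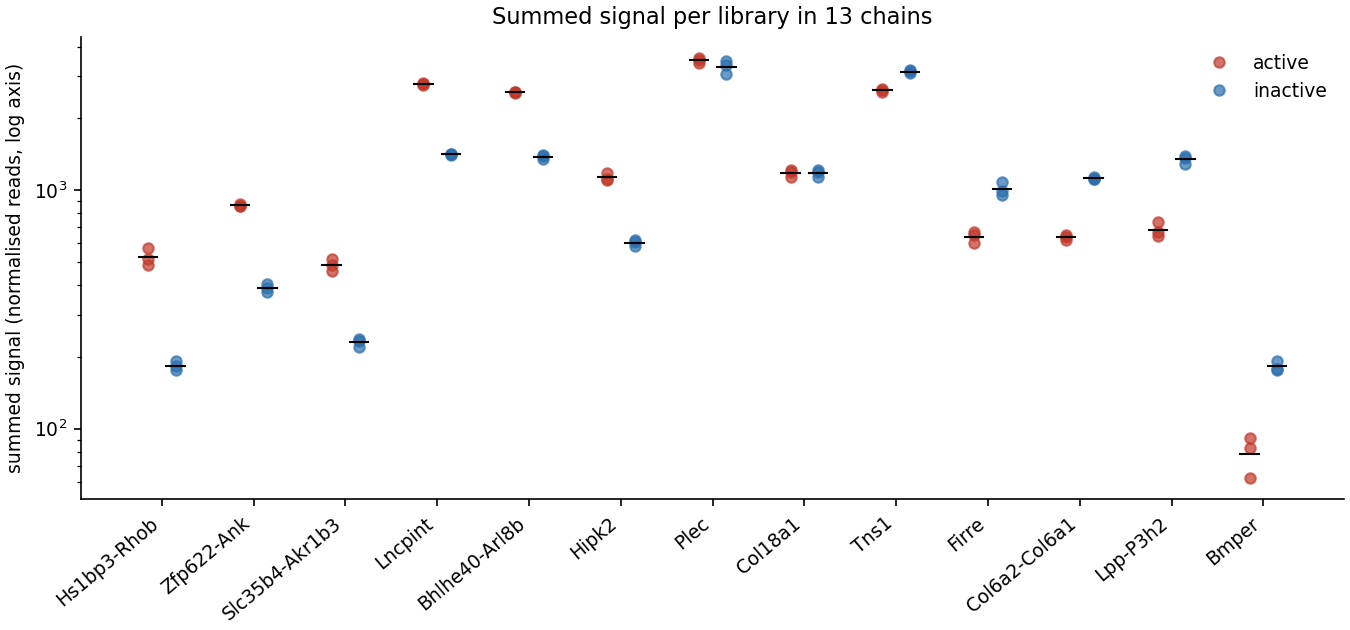
Summed signal of 13 named chains in each library, in normalised reads on a log axis, active (red) left of inactive (blue), lines at the means. The groups lie apart in all but Plec and Col18a1, where they overlap.

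The 8 chains that fell most lay on 6 chromosomes. The Bmper chain (chr9:23285926-23319027), inside the gene of a secreted BMP-binding protein, was weak and fell most. It had 91, 62 and 83 in active and 177, 192 and 178 in inactive libraries, a 2.32-fold lower mean (log2 change -1.22 ± 0.12, adjusted p = 6.55e-12). Its region at chr9:23306288-23306583 had 2, 2 and 4 reads in active and 34, 43 and 41 in inactive libraries. The surroundings, with a median of -0.73, were lower too.

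The Lpp-P3h2 chain (chr16:25192818-25245521) had 11 regions, 9 of which fell. It lies 979937 bp from Lpp, a LIM protein of focal adhesions, and 678325 bp from P3h2, a collagen prolyl hydroxylase. Its sum was 734, 643 and 666 in active and 1388, 1360 and 1291 in inactive libraries (log2 change -0.98 ± 0.05, adjusted p = 1.23e-21). The region at its start, chr16:25192818-25193348, had 55, 67 and 53 in active and 280, 274 and 287 in inactive libraries, a log2 change of -2.25. The surrounding median was -0.04, near that of all regions.

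The Col6a2-Col6a1 chain (chr10:76469839-76505176) lies between the genes of collagen VI alpha chains, 10339 bp from Col6a2 and 56471 bp from Col6a1. It had 638, 649 and 621 in active and 1114, 1140 and 1119 in inactive libraries (log2 change -0.82 ± 0.04, adjusted p = 1.29e-19). All 9 regions fell, with log2 changes between -1.48 and -0.53. The strongest, at chr10:76484551-76485066, had 179, 184 and 140 in active and 270, 298 and 282 in inactive libraries. The surrounding median was -0.24.

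Gorab-Kifap3 on chromosome 1 (log2 change -0.88), Msi2 on chromosome 11 (-0.86), Lactb2-Eya1 on chromosome 1 (-0.80), Bcl9l on chromosome 9 (-0.80) and Pax8 on chromosome 2 (-0.78) made up the rest of the 8 widest decreases. Kifap3 is a kinesin-associated protein, Msi2 an RNA-binding protein, Eya1 a transcriptional coactivator, Bcl9l a Wnt coactivator and Pax8 a paired-box factor. Their surrounding medians were 0.04 for Gorab-Kifap3, -0.18 for Msi2, -0.09 for Lactb2-Eya1, -0.67 for Bcl9l and -0.24 for Pax8. In the Gorab-Kifap3 chain the strongest region, chr1:163345414-163346045, had 70, 39 and 59 in active and 223, 208 and 210 in inactive libraries.

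Long chains changed less than the extremes, and some of them evenly. The longest, Tns1 (chr1:74025875-74137820), holds 21 regions inside the gene of tensin 1, which links integrins to actin at focal adhesions. It had 2568, 2642 and 2665 in active and 3148, 3104 and 3175 in inactive libraries, a log2 change of -0.26 ± 0.03 (adjusted p = 3.80e-11). Its regions did not move together: 11 fell, 4 rose and 6 did not pass, with log2 changes from -2.24 to 0.71. The region at chr1:74131017-74131926 had 96, 97 and 104 in active and 269, 267 and 258 in inactive libraries. In contrast, the region at chr1:74067838-74068403 had 262, 309 and 332 in active and 202, 192 and 191 in inactive libraries.

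The Firre chain (chrX:49655133-49712239) holds 14 regions inside the gene of an X-linked long noncoding RNA that is known for a role in nuclear organisation. It had 665, 600 and 647 in active and 991, 956 and 1077 in inactive libraries (log2 change -0.66 ± 0.05, adjusted p = 4.05e-15). Of its regions 13 fell and 1 did not pass, all between -1.08 and -0.47. No region held more than 12.4% of the sum, the lowest such share among the 348 chains. The surrounding median was -0.09. The promoter region of Firre, 11656 bp away, had 147, 152 and 147 in active and 141, 149 and 128 in inactive libraries, which did not pass (log2 change 0.10 ± 0.10, adjusted p = 0.422). Its upstream sequence is the one above without a GC box.

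Of the other long chains, Myoz3-Rps14 on chromosome 18 fell by 0.52 on the log2 scale, with 10 of 13 regions lower and a surrounding median of -0.40. Slc41a3-Nup210 on chromosome 6 fell by 0.29 while its surroundings had a median of -0.04. Rxra-Col5a1 (-0.14), Smad3 (-0.15) and Synj2 (-0.09) fell slightly, and all 3 were called higher under the window-change scaling (0.13, 0.14 and 0.14). Synj2 did not pass without inactive replicate 3 (limma adjusted p = 0.0643). Smad3 is a transducer of TGF-beta signals, Rxra a retinoid receptor and Synj2 a phosphoinositide phosphatase. Map4k3-Thumpd2, with 13 regions, had a log2 change of 0.06 that did not pass (adjusted p = 0.219), but passed at 0.15 under that scaling.

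Among the 8 strongest chains the log2 changes lay between -0.26 and 0.22, apart from Lncpint at 0.98. The Plec chain (chr15:76074008-76092360), inside the gene of the cytolinker plectin, had the highest sum, with 3421, 3590 and 3526 in active and 3060, 3487 and 3338 in inactive libraries. The groups overlap, and the log2 change of 0.09 ± 0.03 (adjusted p = 0.0180) did not pass without active replicate 2 (0.08) or without inactive replicate 1 (0.04) and turned to a lower call at -0.12 under the window-change scaling. Its regions were also the most alike of all chains, with a standard deviation of their log2 changes of 0.11. Akain1-Tgif1 did not pass (-0.06, adjusted p = 0.0558), except without active replicate 1 (0.0262), and was called higher at 0.07 under that scaling. Zmiz1 (0.22), Abtb2 (-0.08) and Tarbp1-Irf2bp2 (-0.22) passed, but did not under that scaling (0.05, -0.03 and -0.06 in this order), and under the window-level scaling Zmiz1 was called lower (-0.16). Abtb2 did not pass under quantile normalization (adjusted p = 0.153), nor without active replicate 1 (adjusted p = 0.303), inactive replicate 2 (0.114) or inactive replicate 3 (0.196).

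A sum that did not differ could hide changes in its parts. The Col18a1 chain (chr10:76906047-76995070) has 12 regions in the gene of collagen XVIII and summed to 1131, 1215 and 1190 in active and 1134, 1214 and 1194 in inactive libraries, a log2 change of -0.00 ± 0.04 that was called higher at 0.16 under the window-change scaling. Yet 4 of its regions rose and 4 fell. The region at chr10:76943634-76944000 had 35, 28 and 28 in active and 4, 4 and 13 in inactive libraries (log2 change 2.14). The region at chr10:76963842-76964032 had 8, 7 and 11 in active and 28, 29 and 20 in inactive libraries (-1.47). The 1700056E22Rik-Hlx chain (4 higher, 3 lower, sum -0.02) and the Rnf2-Edem3 chain (3 higher, 4 lower, sum -0.11) were mixed likewise. The Rnf2-Edem3 sum passed (limma adjusted p = 0.0136), but not without active replicate 3 (0.0580) or inactive replicate 2 (0.110). Jade2-Cdkn2aipnl (0.02), Snx29 (-0.07) and Arhgef10l (-0.02), named as strong chains near 0, had at most 2 regions called in either direction. Their sums did not pass, except that of Snx29 without inactive replicate 2 (adjusted p = 0.0461) and that of Jade2-Cdkn2aipnl under the window-change scaling (0.18), where 1700056E22Rik-Hlx passed too (-0.13). Under the window-level scaling these 3 passed as well (Snx29 -0.13, Jade2-Cdkn2aipnl 0.13 and 1700056E22Rik-Hlx -0.33).

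Mixed chains were the common kind. Of the 348 chains, 187 held regions called in both directions, 66 held higher calls alone, 92 lower calls alone and 3 none. Since 24.4% of tested members were higher and 35.3% lower, chains of several regions can hold both calls without any link between neighbours. Whether 187 is more or fewer than would arise without such a link was not tested, so the count does not show unusual mixing. Of the 78 chains whose sum did not pass, 76 had at least 1 called region and 61 had calls both ways. All regions rose in 7 chains (Hpcal1, Tmx1-Frmd6, Pmepa1, Gpat3-Wdfy3, Slc35b4-Akr1b3, Hipk2 and Bhlhe40-Arl8b) and all fell in 5 (Col6a2-Col6a1, Gpsm2-Stxbp3, Plekhg6-Cd9, Ccnd1-Smim38 and Mapk6-Leo1). Surrounding medians were 0.12 to 0.83 for these 7 and -0.34 to -0.06 for these 5. How many uniform chains would arise without a link between neighbours was not tested either. The sum of Hpcal1 did not pass under the window-change scaling (-0.02), and those of Hipk2 (0.11), Pmepa1 (0.09) and Gpat3-Wdfy3 (0.07) did not pass under the window-level scaling, nor did Hpcal1 (-0.04). The standard deviation of the log2 change was 0.67 within chains and 0.45 between chain means. Over 2134 pairs of neighbouring tested members, which share their libraries, changes correlated weakly (Pearson's r = 0.27) and differed by a median of 0.52. The strongest region of a chain had the same sign as its sum in 281 chains, but it is itself part of that sum, so some agreement is built in. These strongest regions had a median log2 change of -0.11, and the other members -0.10.

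**Figure D4:**
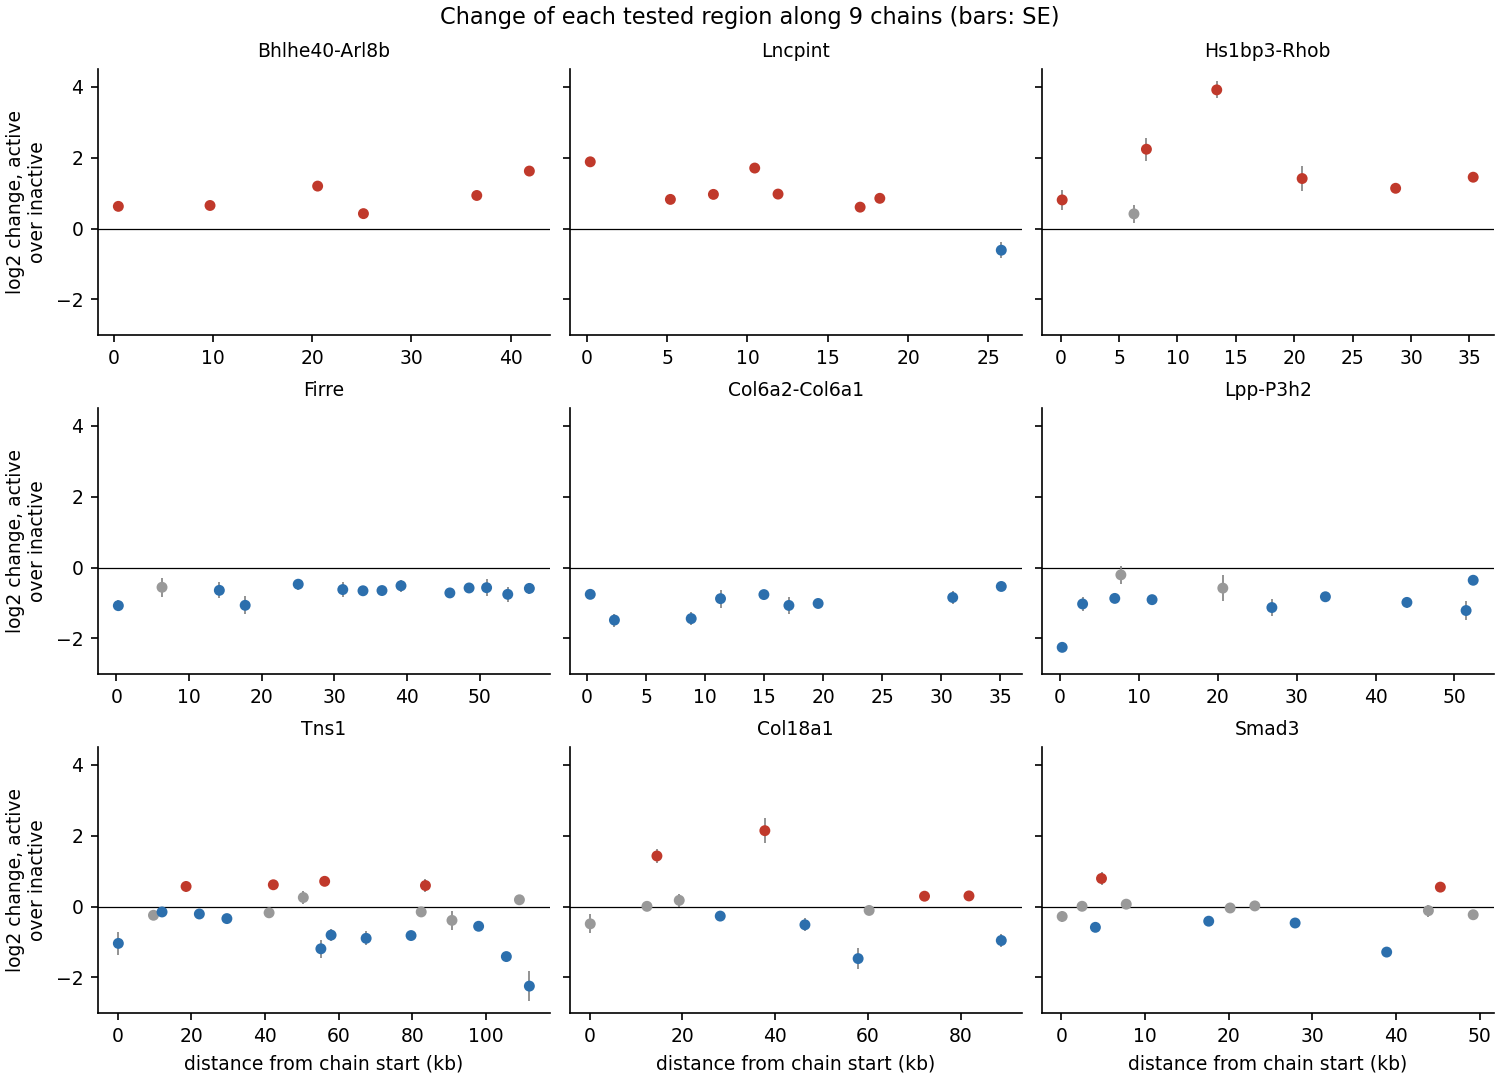
Log2 change, active over inactive, of each tested region along 9 chains by its distance from the start of the chain, with SE bars, red higher, blue lower, grey not past the threshold. Bhlhe40-Arl8b and Col6a2-Col6a1 move one way throughout, while Tns1, Col18a1 and Smad3 hold regions of both directions.

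By position, 142 chains lay wholly inside the body of a gene and 194 overlapped one, by the spans that the gene annotations of the table give, while 154 overlapped none. An annotated region lay inside 7 chains. The bodies of 5 genes held a pair of chains. Both chains of Lpp (-0.13 and -0.27), of Ltbp1, a binder of latent TGF-beta (-0.23 and -0.25), and of Smad3 (-0.27 and -0.15) fell, though those of Smad3 turned to 0.01, which did not pass, and 0.14, which did, under the window-change scaling. Without limma's abundance trend, the chain with the smaller change in each of these pairs did not pass. The limma adjusted p was then 0.232 for Lpp, 0.0502 for Ltbp1 and 0.187 for Smad3. In Tns1 the second chain did not pass (-0.05, against -0.26), except under the window-level scaling (-0.44). In Nsmce2 neither chain passed (-0.07 and 0.08). Under the window-change scaling the first Nsmce2 chain was called lower (-0.28) and the second did not pass (-0.13). Under the window-level scaling both Nsmce2 chains were called lower (-0.33 and -0.18).

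Chromosomes differed in direction. On chromosome 12, 8 of 10 chains rose and 0 fell, with a median log2 change of 0.50 for chains and 0.50 for the other regions of that chromosome. On chromosome 5, 18 of 23 rose and 2 fell, on chromosome 15, 11 of 19 rose and 1 fell, on chromosome 13, 9 of 15 rose and 3 fell, and on chromosome 14, 8 of 17 rose and 4 fell. Medians for chains and other regions were 0.23 and 0.29 on chromosome 5, 0.20 and 0.34 on 13, and 0.13 and 0.16 on 14. All 10 chains of chromosome 18 fell, with medians of -0.44 for chains and -0.37 for other regions. Falls also outnumbered rises on chromosomes X (3 of 3), 10 (8 of 9), 19 (9 of 10), 16 (10 of 13), 9 (12 of 16), 2 (21 of 29), 17 (11 of 19), 11 (9 of 16), 7 (10 of 18), 1 (17 of 31), 8 (13 of 25), 3 (8 of 18) and 4 (9 of 24). Chain and other medians were -0.28 and -0.14 on 10, -0.24 and -0.24 on 19, and -0.27 and -0.14 on 16. They were -0.35 and -0.29 on 9, -0.25 and -0.17 on 2, -0.15 and -0.13 on 17, and -0.25 and -0.25 on 11. On 7 they were -0.16 and -0.13, on 8 -0.14 and -0.11, on 3 -0.05 and -0.06, and on 4 -0.01 and 0.00. The medians of chains and of other regions lay furthest apart on X (-0.35 and -0.08), followed by chromosomes 1 (-0.14 and 0.03) and 15 (0.11 and 0.28). Chromosome 6 held both, 12 rises and 7 falls of 23, with medians of 0.31 for chains and 0.32 for other regions. NIH3T3 cells carry an abnormal number of chromosomes. The part of copy number in these values was not tested.

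Set against the other regions within 5 Mb (39 to 469 per chain), the chains followed their surroundings and lay slightly below them. Over 348 chains, which share libraries and neighbouring windows, the chain's log2 change correlated with the surrounding median at Pearson's r = 0.67 and Spearman's coefficient of 0.62. The chain was below that median in 220 and above it in 128, with a median difference of -0.08. The measures are unlike: strong regions weigh most in a chain's sum, while the surrounding median is over single regions of any level, promoters included. The part of this in the difference was not tested.

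**Figure D5:**
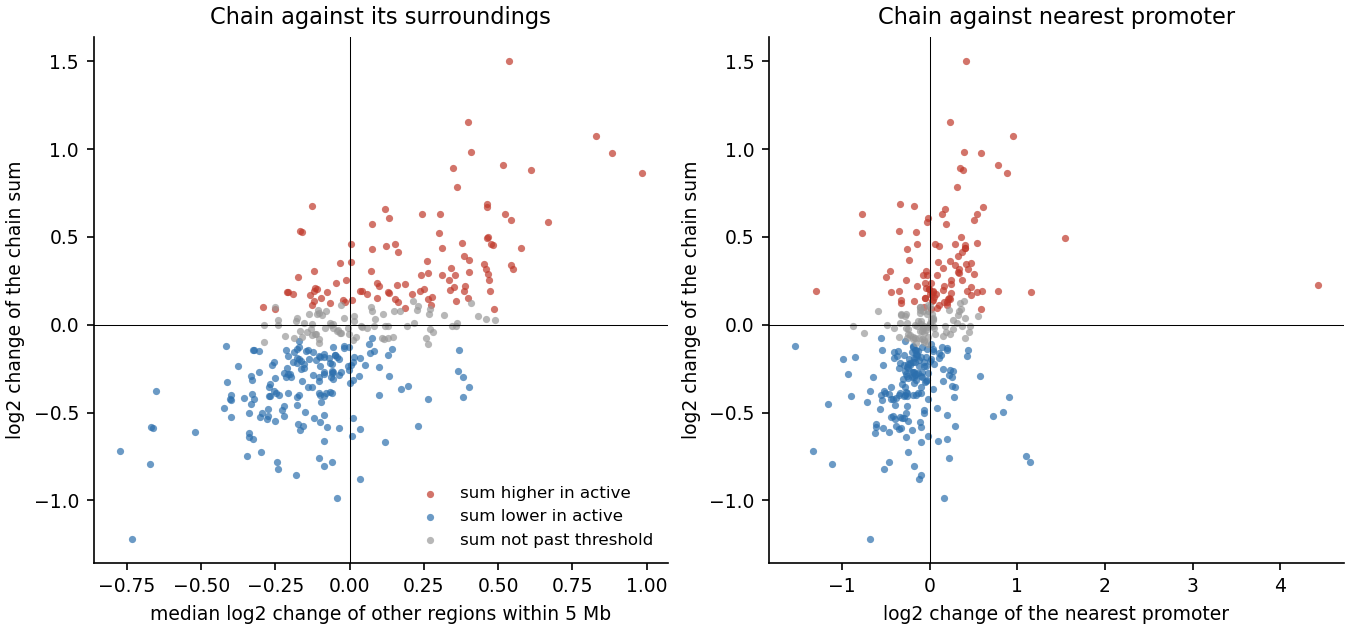
Log2 change of each of 348 chain sums against the median log2 change of the other regions within 5 Mb (left) and against that of the nearest promoter region (right), red and blue for sums past the threshold and grey for the rest. The points correlate at r = 0.67 on the left and r = 0.35 on the right. The point far right is the promoter of Fam185a at 4.43.

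Promoters beside the chains took no part in the rule. The nearest promoter region, within 1000 bp of a start site, lay a median of 47276.5 bp away, and 179 chains had one within 50 kb. Among the 327 different nearest promoters 84 were higher (25.7%, against 21.0% of all promoter regions) and 117 lower (35.8%, against 37.6%), with a median log2 change of -0.06 (all promoters -0.11). Of the 270 chains past the threshold, 139 had a nearest promoter called in the direction of the chain and 31 one called the opposite way, and within 50 kb these were 76 and 10 of 138. Over all 348 pairs the changes correlated at r = 0.35 (Spearman's coefficient 0.45), and over the 179 near pairs at r = 0.39 (Spearman's 0.55). After the surrounding median was taken from both, r was 0.03 (Spearman's 0.13) over all pairs and 0.08 (Spearman's 0.22) over near pairs.

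Some of the widest changes stood beside promoters with smaller ones, a difference that was not tested. Those chains were picked for their wide changes and the promoters were not, so smaller promoter changes can follow from the choice alone. The promoter region of Hs1bp3 had 193, 228 and 225 in active and 165, 143 and 176 in inactive libraries (log2 change 0.42, adjusted p = 0.000237), against 1.50 for its chain. That of Col6a2 had 144, 157 and 162 in active and 205, 243 and 216 in inactive libraries (-0.52, adjusted p = 6.86e-06), against -0.82. Bhlhe40 had 1523, 1578 and 1523 in active and 1183, 1198 and 1265 in inactive libraries (0.34, adjusted p = 1.31e-09), against 0.89. Frmd6, with the GC-rich upstream sequence above, had 0.40 against 0.98, and Bcl9l fell more than its chain, -1.11 against -0.80. Opposite calls included Slc41a3, whose promoter rose by 0.22 while its chain fell by 0.29. They also included Il1rn, the interleukin-1 receptor antagonist gene nearest to the Pax8 chain, whose promoter rose by 1.14 while that chain fell.

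Some genes of the lists chosen for fibroblasts lay near a dense chain. Of all 9460 genes with a promoter region, 255 had it within 50 kb of one. For the actin cytoskeleton and focal adhesions this held for 8 of 27 genes (29.6%). Of the 7 described here, the chains rose beside Actb (0.28), Actn1 (0.50) and Myh9 (0.23), and fell beside Actn4 (-0.46) and Lpp (-0.13). The chains beside Vcl (-0.01) and Lima1 (0.09) did not pass. Under the window-change scaling none of the 3 rises passed (Actb -0.07, Actn1 0.01, Myh9 0.02), and Vcl (-0.18) and Lima1 (-0.28) were called lower. Under the window-level scaling Actb, Vcl and Lima1 were called lower (-0.22, -0.38 and -0.43), and Actn1 (-0.04) and Myh9 (-0.06) did not pass. The chain beside Lpp did not pass without inactive replicate 2 (adjusted p = 0.0517). Actb encodes cytoplasmic beta-actin, Actn1 and Actn4 alpha-actinins, Myh9 non-muscle myosin and Vcl vinculin. The chain beside Actb averaged 1007 ± 17.1 in active and 828.7 ± 39.7 in inactive libraries (SD, n = 3 each), with a surrounding median of 0.31, while the promoter region of Actb did not pass (-0.03). Of the whole list, 11 promoters rose and 7 fell of 27, where 21.0% of all promoters rose and 37.6% fell.

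Of the matrix genes 5 of 26 lay near a chain, and all 4 chains beside them fell, as did 167 of all 348 dense chains. These were Col6a2-Col6a1 (-0.82), Col4a1 (-0.44), which also serves as the nearest chain of Col4a2, Syn3 (-0.18), which lies beside Timp3, and Rxra-Col5a1 (-0.14). Under the window-change scaling Rxra-Col5a1 was called higher (0.13) and Syn3 did not pass (-0.03), and without trend neither passed. The Col4a1 chain, in the gene of a basement membrane collagen, averaged 701 ± 14.2 in active and 952.7 ± 64.8 in inactive libraries. The promoters of Col4a1, Col4a2, Col5a1 and Col6a2 fell, and that of Timp3, a metalloproteinase inhibitor, rose (0.43). Of the 26 listed promoters, 3 rose and 17 fell, where 21.0% and 37.6% of all promoters did. Among fibroblast transcription factors 2 of 26 were near a chain, Cebpb (chain -0.38) and Smad3 (chain -0.15), and both chains and both promoters fell, though the Smad3 chain did not hold its direction under that scaling. Of YAP and TEAD genes and targets 1 of 14 was near, Ccn1, whose chain did not pass (0.06, or 0.12, which passed, under that scaling) and whose promoter fell (-0.33). Of the AP-1 and serum-response factors 0 of 19 were. Of the marker genes with a promoter region, 0 of 10 fibroblast, 0 of 2 neural and 0 of 1 endothelial ones lay within 50 kb of a chain. Krt8, an epithelial keratin, had a chain within reach that rose (0.19, surrounding median 0.24), and its promoter rose too (0.78). Under the window-change scaling the chain beside Krt8 stood at -0.05 and did not pass.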

How the data were processed

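ATAC-seq libraries, 3 active and 3 inactive by the knock-in label, were analysed from the deposited table. The deposited values are a score, namely region read totals scaled per library by the authors and then rounded, as the values themselves show, and no count model was used. The submitters' processing notes name build mm39, STAR 2.7.11a, DESeq2 1.36.0, Picard 3.1.1, Trimmomatic 0.39 and featureCounts. Not given in the sources used here are the peak caller, how peaks were merged and any Tn5 shift. The depth before scaling is not known, which leaves low regions least precise.

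The members, gene lists and tests were chosen with earlier results of these data known. Regions, and separately sums over chains, were tested two-sided with limma 3.58.1 (trend and robust, R 4.3.3) on log2(value + 1), active over inactive, for means of at least 10. The Benjamini-Hochberg adjustment covered all features of a fit, with a threshold of 0.05. A log2 change on this scale understates low regions. Folds are ratios of group means. The share of distal signal was tested by an exact permutation test over libraries. Tables were handled in Python 3.11.15 with numpy 2.4.6 and pandas 2.3.3, and plots drawn with matplotlib 3.10.9. Both fits were tested on simulated data.

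Chains were named by rule: the 8 with most regions, the 8 with the highest sums, the 8 highest and 8 lowest changes past the threshold, the 4 most mixed and the 4 strongest within 0.1 of 0 among chains not past the threshold. Chains outside these groups are named for uniform calls, several chains in a gene, or a listed gene within 50 kb. Regions other than the strongest and the most changed of a chain were picked after their values were seen. 1 listed gene near a chain is not reported here. Promoter sequences matched 247 of 327 nearest promoter genes by symbol. Alternatives were other pseudocounts (0.5 and 5), filters, quantile normalization, no trend, centring on the median level of 10 Mb windows or, added after the data were seen, on their median change, a replicate block, each library left out, and other gaps and chain lengths.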

Additional observations from a re-analysis of the deposited data

How the results depend on the processing

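The share of distal signal in dense chains stayed lower in active libraries under every alternative that gave one, from -0.12 points with gaps of at most 5000 bp to -1.88 with 20000 bp, and from -1.15 to -1.10 with 1 library left out. With 1 library left out, 92 to 102 chains were higher and 157 to 165 lower, 545 to 602 members higher and 763 to 846 lower, and 75 to 84 nearest promoters higher and 98 to 124 lower, and 251 to 261 of the 270 called chains kept their direction. Without trend, 58 chain sums were higher and 110 lower and 75 promoters lower, so 168 of 270 calls kept their direction and 102 were lost. Without trend the calls of 13 named chains were lost. These were Plec, Zmiz1, Tarbp1-Irf2bp2, Myh9, Rxra-Col5a1, Synj2, Abtb2, Rnf2-Edem3, Syn3, Krt79-Krt8 and a chain each of Smad3, Lpp and Ltbp1. Centred on the median level of 10 Mb windows, 41 chain sums and 21 promoters were higher. Of the 270 calls, 169 then kept their direction, 66 were lost and 35 were called the opposite way. Centred on the median change of these windows, 34 promoters were higher. The cause was not tested. Other pseudocounts, filters and quantile normalization moved no count by over 1.5 times.

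Counts changed where the alternative changed the number of chains. In the order of members, sums and promoters, each higher then lower, they were 33 and 76, 5 and 15, 7 and 11 for gaps of at most 5000 bp (25 chains). They were 1410 and 1810, 229 and 318, 149 and 234 for 20000 bp (701 chains). They were 1787 and 2080, 434 and 520, 256 and 390 for at least 4 regions (1265 chains). They were 73 and 147, 6 and 20, 5 and 15 for at least 10 regions (33 chains).

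Values of 61 named chains were followed. On window level, the sums that reversed were Rxra-Col5a1 (0.049), Smad3 (0.048), Synj2 (0.040), Plec (-0.20), Zmiz1 (-0.16), Col18a1 (0.055), Hpcal1 (-0.041), Actn1 (-0.042), Myh9 (-0.061), Lima1 (-0.43), Krt79-Krt8 (-0.061), Actb-Fscn1 (-0.22) and a chain of Nsmce2 (-0.18). On window change they were Rxra-Col5a1 (0.13), both chains of Smad3 (0.14 and 0.015), Synj2 (0.14), Plec (-0.12), Akain1-Tgif1 (0.067), Col18a1 (0.16), Snx29 (0.060), Hpcal1 (-0.017), Lima1 (-0.28), Krt79-Krt8 (-0.052), Actb-Fscn1 (-0.066) and a chain of Nsmce2 (-0.13). Under quantile normalization Arhgef10l (0.011) and that chain of Nsmce2 (-0.0012) reversed. Near 0, Col18a1 (-0.031 to 0.027), 1700056E22Rik-Hlx (-0.044 to 0.00093), Jade2-Cdkn2aipnl (-0.0084 to 0.054) and Plau-Vcl (-0.066 to 0.055) changed sign with 1 library left out. Over the 61 chains 833 values kept direction and call, 33 lost the call, 14 gained it and 35 reversed. Same-numbered libraries deviated together at -0.02 to 0.00 and differently numbered ones at -0.01 to 0.01, so no pairing by number was seen. Values this near 0 cannot tell whether same-numbered libraries were prepared together. A replicate block left 102 chain sums higher and 167 lower and kept 269 of 270 calls.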
